A study of Mus musculus with 2 samples.

Results

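The VEGF ligands and receptors were 9 of the 32285 genes in the deposited matrices, taken by name. They were the receptors Kdr (VEGFR2), Flt1 (VEGFR1) and Flt4 (VEGFR3), the co-receptors Nrp1 and Nrp2, and the ligands Vegfa, Vegfb, Vegfc and Vegfd. Both matrices held all 9. Pgf, the other ligand of the family in mice, is given beside them.

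The data were 2 libraries of 3′ single-cell RNA-seq of live CD31+CD45- cells, sorted from dissociated tumors of YUMMER1.7, a mouse melanoma line, in female mice of 8 to 10 weeks. Each condition was 1 library, made from the pooled tumors of 3 mice. The Dnmt1iECKO mice were labelled Cdh5CreERT2;Dnmt1fl/fl;ZsGreenlsl/lsl, so that tamoxifen removes floxed Dnmt1, the maintenance DNA methyltransferase gene, in cells that use the endothelial Cdh5 promoter, and Cre also switches on the ZsGreen reporter. The control was labelled only C57BL/6, whereas the methods of the study give the same Cre and reporter alleles, without floxed Dnmt1, as its control mice, and the labels do not say which of these the control library was. The labels also give subcutaneous tumors of the shoulder, whereas the study's methods give tumors of the lung after injection into the tail vein, and cells with markers of the alveolar lining were found in both libraries. The labelled cell type, melanoma cells, does not match the sort.

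VEGF-A binds VEGFR1 and VEGFR2, VEGF-B and PlGF bind VEGFR1, VEGF-C and VEGF-D bind VEGFR3, and processed VEGF-C also binds VEGFR2. VEGFR2 carries most of the growth, survival and permeability signal of blood vessel endothelium, VEGFR1 binds VEGF-A tightly and signals weakly, and VEGFR3 serves lymphatic growth. Neuropilin-1 and neuropilin-2 lack a kinase of their own and hold VEGF or class 3 semaphorins beside the signaling receptor. In the lung, alveolar type 1 epithelium is a known source of VEGF-A for the capillary bed, and aerocytes, the capillary cells of gas exchange, are known for high Kdr.

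The matrices held 9301 control and 9522 Dnmt1iECKO cells with 123830489 and 141433493 UMIs, and 7764 and 7839 cells remained after the quality filters and doublet removal. Values are counts per 1000000 UMIs (CPM, counts scaled to equal totals), summed over the cells of a class in 1 library, with exact Poisson 95% intervals, and a log2 ratio is Dnmt1iECKO over control with its exact 95% interval. Intervals cover counting error only, since 1 library per condition leaves no replicate error, and no test was possible between conditions. Where a class had no UMI of a gene, or no cell with one, the limit given is what 3 counts would make, a little below the exact upper bound. A ratio is called past the fold when it is at least 0.5 on the log2 scale in either direction, its interval does not hold 0 and both libraries together hold at least 100 UMIs. The libraries shared 29 cell barcodes, 4 of them among the endothelial cells. Dnmt1 itself, the targeted gene, stood at 52.2 CPM in control and 28.0 CPM in Dnmt1iECKO endothelial cells, a log2 ratio of -0.90 (-1.04 to -0.76), lower in the library labelled Dnmt1iECKO. Counts near the 3′ end of a transcript need not lie in the deleted exons, so this value is no direct check of the deletion.

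Endothelial cells were those of endothelial clusters with a UMI of Cdh5 or Pecam1 and none of Ptprc, Epcam, Cspg4 or Myh11, 3757 in control and 1552 in Dnmt1iECKO, with median depths of 9726 and 9625 UMIs. They fell into aerocyte-like (Ednrb, Car4; 1016 control and 316 Dnmt1iECKO cells), general capillary-like (Bmp6, Glp1r; 635 and 239), vein-like (Slc6a2, Selp; 148 and 152), artery-like (Bmx, Mecom; 46 and 45), lymphatic-like (Prox1, Mmrn1; 33 and 16), interferon gamma-activated-like (Ubd, Cxcl9; 276 and 171) and proliferating-like (Mki67, Top2a; 111 and 53) classes. Clusters that met no naming rule are called by their leading gene: Ifit1-led (887 and 320 cells), Hmcn1-led (195 and 63), Fabp4-led (51 and 18) and AY036118-led (359 and 159), the last with a median of only 1956.5 UMIs per cell. None of the 9 members and not Dnmt1 served to form the clusters. The CD31+CD45- sort should hold few other cells, yet immune clusters took 15.7% of control and 55.1% of Dnmt1iECKO cells, and clusters that carried both endothelial and other markers, 1367 and 622 cells, were kept apart as mixed. The Hmga2-led cells, 123 and 200, are the putative tumor cells. Hmga2 was found in 100% and 99% of them, and also in 63.3% and 57.7% of the cells of the remaining clusters. Y-linked genes gave 63.7 and 66.1 CPM in the Hmga2-led cells of these female hosts. They gave under 1 CPM in endothelial, epithelial, stromal, immune and mixed cells, and 19.4 and 9.68 CPM in the remaining clusters. As only 2 of 9 melanoma markers were detected in at least 10% of the Hmga2-led cells, they are not named melanoma here.

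DNMT1 copies methylation at CG dinucleotides, so the bases just before 4 members are shown with every CG in capitals. Nrp2 and Vegfc are the members whose levels lay farthest apart between the libraries, Kdr is the main receptor, and Vegfd has the fewest CGs. The sequences are those of RefSeq for GRCm38.p6, where all 9 members were matched, and are cut where they would run into the annotated gene. Methylation was not measured in these data.
Nrp2 promoter, chr1:62703067-62703284, plus strand: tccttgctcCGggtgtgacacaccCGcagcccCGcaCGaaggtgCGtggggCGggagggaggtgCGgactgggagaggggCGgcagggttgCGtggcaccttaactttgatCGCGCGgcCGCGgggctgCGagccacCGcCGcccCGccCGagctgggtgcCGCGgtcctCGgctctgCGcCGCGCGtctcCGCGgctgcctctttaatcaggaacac
Vegfc promoter, chr8:54077282-54077531, plus strand: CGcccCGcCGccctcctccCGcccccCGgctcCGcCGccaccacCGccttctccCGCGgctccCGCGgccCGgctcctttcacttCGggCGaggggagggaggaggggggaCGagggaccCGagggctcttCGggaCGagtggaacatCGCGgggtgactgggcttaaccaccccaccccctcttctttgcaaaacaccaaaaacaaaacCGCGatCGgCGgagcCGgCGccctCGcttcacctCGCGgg
Kdr promoter, chr5:75978459-75978705, minus strand: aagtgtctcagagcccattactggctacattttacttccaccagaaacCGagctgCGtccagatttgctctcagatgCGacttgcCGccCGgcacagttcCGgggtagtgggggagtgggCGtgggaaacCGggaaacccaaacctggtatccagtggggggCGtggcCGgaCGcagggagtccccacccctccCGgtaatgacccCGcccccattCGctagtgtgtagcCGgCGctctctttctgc
Vegfd promoter, chrX:164373272-164373377, plus strand: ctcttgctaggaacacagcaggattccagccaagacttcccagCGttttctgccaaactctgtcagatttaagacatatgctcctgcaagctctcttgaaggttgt
Counting the 250 bases before the RefSeq start, the Nrp2 promoter held 32 CGs, a number reached by 4.58% of the 32851 promoters in the table, and that of Vegfc held 30, a number reached by 5.94% of promoters. The median promoter held 6. Flt1 had 23, Vegfb 26, Kdr and Flt4 16 each, Nrp1 11, Vegfa 7 and 11 at its pair of starts, and Vegfd 2, a number reached by 81.2%. Nrp2 spans chr1:62703285-62818695 of GRCm38 on the plus strand and overlaps 1 other gene of the matrices, Gm29083 on the opposite strand. Vegfc spans chr8:54077606-54187096, Kdr chr5:75932827-75978458, Flt1 chr5:147561604-147726011, Flt4 chr11:49609263-49652739, Nrp1 chr8:128358604-128503363, Vegfa chr17:46016993-46032369, Vegfb chr19:6982473-6987651 and Vegfd chrX:164373378-164402650. None of these 8 overlapped another gene of the matrices.

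Over all endothelial cells, Nrp2 and Vegfc were higher in the Dnmt1iECKO library and the 3 receptors, Nrp1 and the other ligands were not past the fold in either direction. Nrp2 stood at 56.2 CPM in control and 98.9 CPM in Dnmt1iECKO, a log2 ratio of 0.82 (0.73 to 0.90). Vegfc stood at 98.4 and 148 CPM, a log2 ratio of 0.59 (0.52 to 0.66), which was 0.42 and under the fold with clusters of other cell types kept. These 2 of 9 members were past the fold upward, where 6.28% of the 11948 genes with enough UMIs were, and 0 of 9 downward, where 3.21% were. The median log2 ratio of the members was -0.13 and that of all genes -0.02.

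For Nrp2, Vegfc, Kdr and Nrp1, most of the difference over all endothelial cells moved with the class composition. Vein-like cells, where Nrp2 and Vegfc are high, were 3.94% of control and 9.79% of Dnmt1iECKO endothelial cells, and aerocyte-like cells, where Kdr and Nrp1 are high, were 27.04% and 20.4%. With each class weighted as in the control library, the log2 ratio of Nrp2 was 0.30 and that of Vegfc 0.23, both under the fold. For Nrp2 this value includes lymphatic-like cells, which held 30.5% of its control endothelial UMIs and went from 1440 CPM in control to 827 CPM in Dnmt1iECKO. That fall offsets rises in blood vessel classes, and a weighting of those classes alone was not made. The weighting by control composition left Kdr at -0.04 in place of -0.29, and Nrp1 at -0.03 in place of -0.26. Vegfa went to -0.10 from -0.17. The other members moved away from 0: Flt1 to -0.16 from -0.13, Flt4 to 0.18 from 0.09, Vegfb to -0.28 from -0.19 and Vegfd to -0.20 from -0.07. Within the 11 classes, 68 ratios of a member had enough UMIs, of which 5 were past the fold upward and 2 downward. Of all genes with enough UMIs in a class, those past the fold upward and downward were 1.99% and 3.02% in aerocyte-like, 2.38% and 2.63% in general capillary-like, 3.27% and 4.74% in vein-like, 7.47% and 8.1% in artery-like and 6.44% and 10.9% in lymphatic-like cells. They were 3.46% and 2.89% in interferon gamma-activated-like, 4.96% and 4.6% in proliferating-like, 2.15% and 4.39% in Ifit1-led, 5.01% and 4.44% in Hmcn1-led, 9.88% and 9.04% in Fabp4-led and 2.28% and 6.66% in AY036118-led cells. The 5 upward ratios belong to Nrp2 in 3 classes and Vegfc in 2, and the 2 downward ratios to Nrp2 in lymphatic-like and Vegfb in Ifit1-led cells.

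**Figure D1:**
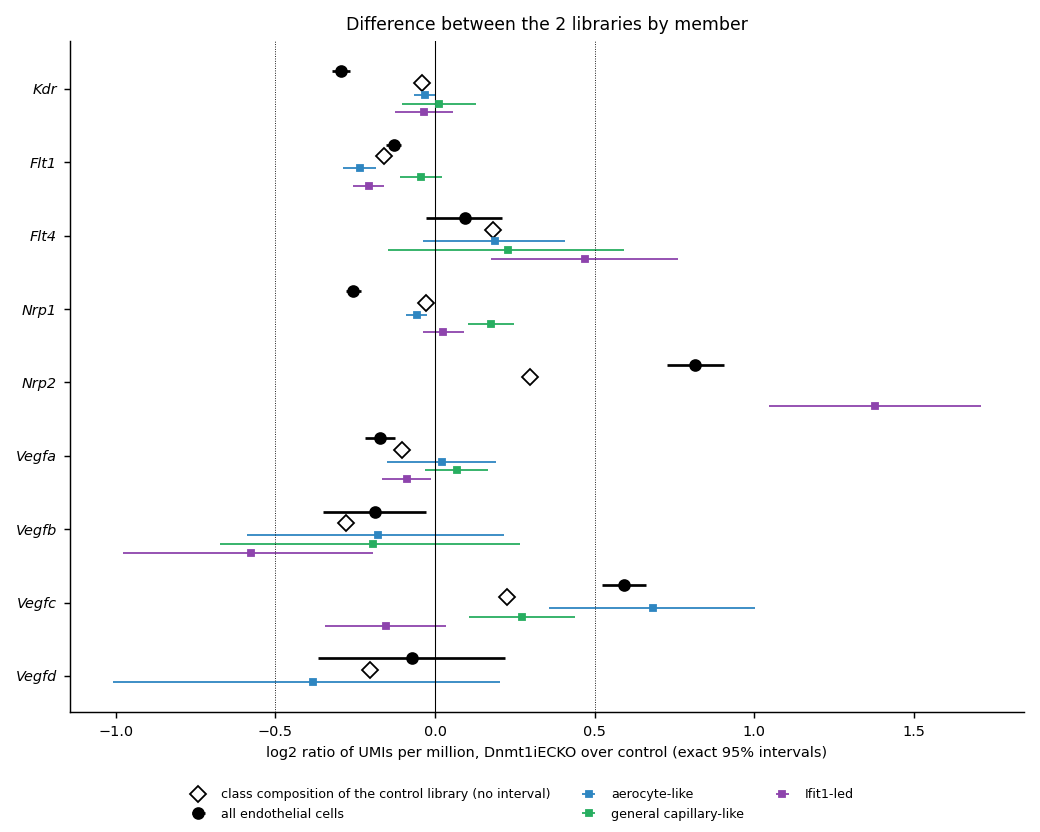
Log2 ratio of CPM, Dnmt1iECKO over control (x axis), for the 9 members (y axis); black circles are all endothelial cells, open diamonds the same with the class composition of the control library, and colored squares the 3 largest classes, with bars for exact 95% intervals of counting error and dotted lines at 0.5 in either direction. Nrp2 and Vegfc lie beyond 0.5 over all endothelial cells and at 0.30 and 0.23 with the control composition, and a class is left out for a member where both libraries together hold under 100 UMIs.

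Kdr, the main signaling receptor, was highest in aerocyte-like cells, at 2160 CPM in control and 2113 CPM in Dnmt1iECKO, a log2 ratio of -0.03 (-0.07 to 0.00). After thinning to 2000 UMIs per cell, 97.4% of control and 97.0% of Dnmt1iECKO aerocyte-like cells had a Kdr UMI. The next classes in the control library were AY036118-led at 854 CPM and Fabp4-led at 758 CPM, which overlapped in their intervals. From lymphatic-like cells, at 487 and 384 CPM in the 2 libraries, down through interferon gamma-activated-like (460 and 466), proliferating-like (430 and 373), vein-like (390 and 346), general capillary-like (379 and 383), Ifit1-led (369 and 360) and Hmcn1-led cells (324 and 319), each class overlapped the next one in each library's own order. Artery-like cells were lowest, at 158 and 126 CPM, below every other class in both libraries.

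Aerocyte-like cells held 70.1% of all endothelial Kdr UMIs in control and 60.9% in Dnmt1iECKO. No class had a Kdr ratio past the fold, with the 11 ratios between -0.34 in lymphatic-like and 0.02 in interferon gamma-activated-like cells.

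Flt1, which binds VEGF-A tightly, was spread more evenly. It was highest in Fabp4-led cells, at 2400 CPM in control and 2634 CPM in Dnmt1iECKO, and vein-like cells followed in control at 1579 CPM, with 1502 CPM in Dnmt1iECKO. Artery-like cells had 1322 and 1547 CPM, Ifit1-led cells 1386 and 1200 CPM, Hmcn1-led cells 1296 and 1291 CPM, and general capillary-like cells 1176 and 1140 CPM. In control, artery-like cells overlapped Ifit1-led and Hmcn1-led cells, while in Dnmt1iECKO they overlapped vein-like and, narrowly, Hmcn1-led cells. Aerocyte-like cells were lower, at 1067 and 906 CPM, and lymphatic-like cells had 11.9 and 4.13 CPM, with all 6 control UMIs in 1 cell.

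No class had an Flt1 ratio past the fold. The ratio was -0.24 (-0.29 to -0.18) in aerocyte-like cells, -0.21 (-0.26 to -0.16) in Ifit1-led cells and -0.32 (-0.39 to -0.26) in interferon gamma-activated-like cells, and -0.04 (-0.11 to 0.02) in general capillary-like cells. Artery-like cells lay the other way, at 0.23 (0.08 to 0.37). With artery-like cells taken by their marker UMIs in place of clusters (22 control and 12 Dnmt1iECKO cells), that ratio was -0.51, so its direction rests on how the class is drawn.

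The balance of Flt1 and Kdr differed more between classes than between libraries. Lymphatic-like cells were left out of it for few Flt1 UMIs, 6 and 1 in the 2 libraries against 246 and 93 of Kdr. Flt1 UMIs per Kdr UMI were 0.494 (0.484 to 0.504) in control and 0.429 (0.412 to 0.445) in Dnmt1iECKO aerocyte-like cells, against 3.10 (2.96 to 3.25) and 2.98 (2.75 to 3.23) in general capillary-like cells. Vein-like cells had 4.05 and 4.34, Ifit1-led cells 3.76 and 3.34, interferon gamma-activated-like cells 2.36 and 1.86, and artery-like cells 8.38 (6.73 to 10.5) and 12.3 (9.60 to 15.9). A 3′ count depends on each gene's own transcript end, so these are compared between classes and are no ratio of molecules of the 2 receptors. After thinning, 17.3% of control and 25.2% of Dnmt1iECKO aerocyte-like cells had Kdr without Flt1, against 4.57% and 5.91% of general capillary-like cells.

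**Figure D2:**
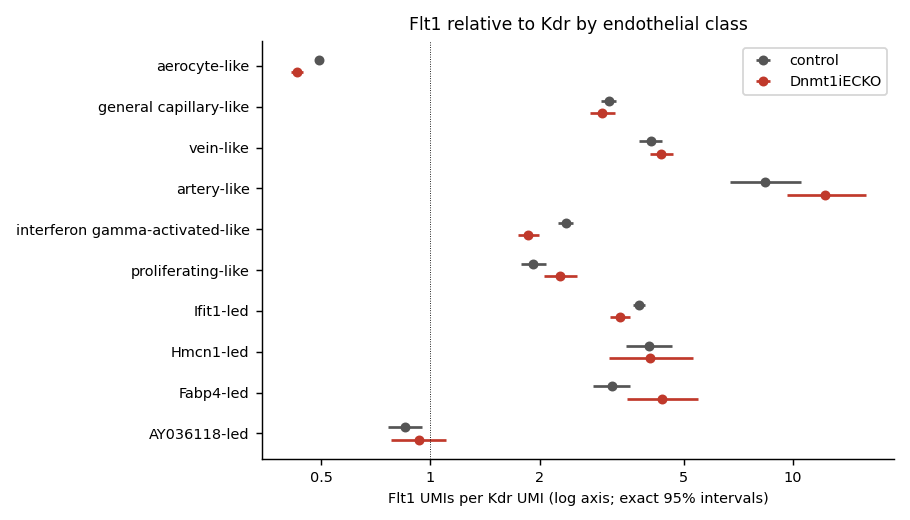
Flt1 UMIs per Kdr UMI by endothelial class in the control and Dnmt1iECKO library, with bars for exact 95% intervals of counting error. Lymphatic-like cells are left out for few Flt1 UMIs (6 and 1). Of the classes shown, aerocyte-like cells lie lowest, at 0.494 and 0.429, and artery-like cells highest, at 8.38 and 12.3.

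Flt4, the receptor of VEGF-C and VEGF-D, was a lymphatic gene in these data, with 522 CPM in control and 513 CPM in Dnmt1iECKO lymphatic-like cells, a log2 ratio of -0.03 (-0.35 to 0.29). The 10 other classes ran from 22.9 to 49.0 CPM in control and from 18.4 to 75.4 CPM in Dnmt1iECKO, each overlapping its neighbor in order. Lymphatic-like cells were 0.878% of control endothelial cells and held 14.5% of their Flt4 UMIs, while aerocyte-like cells held 35.2%. Of the 7 classes with enough UMIs, none was past the fold, and the highest ratio was 0.47 (0.18 to 0.76) in Ifit1-led cells, at 28.5 and 39.5 CPM.

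**Figure D3:**
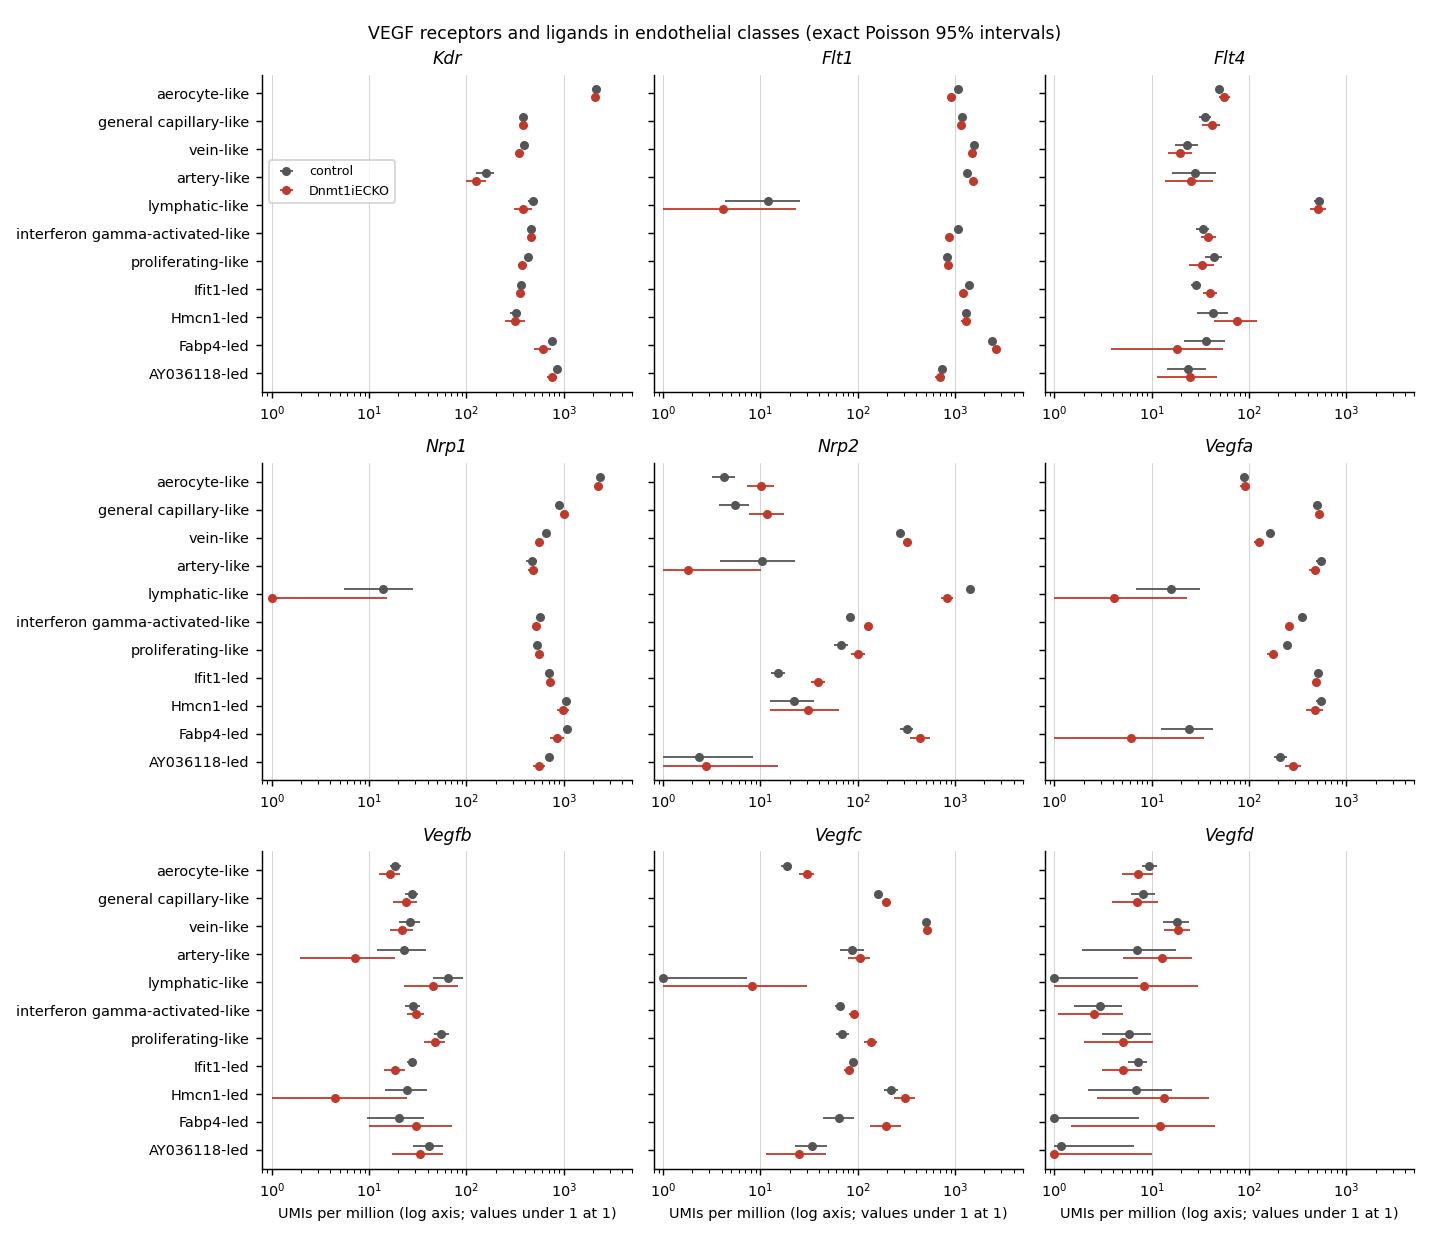
CPM of each member (log axis, values under 1 drawn at 1) in the 11 endothelial classes of the control (gray) and Dnmt1iECKO library (red), with exact Poisson 95% intervals. Kdr and Nrp1 are highest in aerocyte-like cells, Flt4 and Nrp2 in lymphatic-like cells, and Vegfc in vein-like cells.

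Nrp1, the co-receptor of VEGFR2, was highest in the same class as Kdr. Aerocyte-like cells had 2360 CPM in control and 2268 CPM in Dnmt1iECKO, and held 59.8% and 49.7% of endothelial Nrp1 UMIs. In general capillary-like cells it stood at 898 and 1013 CPM, with a log2 ratio of 0.17 (0.10 to 0.25) that was 0.04 (-0.01 to 0.09) with the class taken by its marker UMIs, and vein-like cells 663 and 561 CPM, a ratio of -0.24 (-0.35 to -0.14). Artery-like cells, at 470 and 483 CPM, were lowest among the blood vessel classes and overlapped the class next in order in both libraries. Lymphatic-like cells had 13.8 CPM in control, all of it in 1 cell, and no UMI in Dnmt1iECKO, which with so few cells allows up to 12.4 CPM. None of the 10 Nrp1 ratios with enough UMIs was past the fold.

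Nrp2, the co-receptor of VEGFR3, was highest in lymphatic-like cells, where Nrp1 was lowest. They had 1440 CPM in control and 827 CPM in Dnmt1iECKO, a log2 ratio of -0.80 (-1.03 to -0.57), past the fold downward as were 10.9% of genes in that class. They held 30.5% of endothelial Nrp2 UMIs in control and 10.9% in Dnmt1iECKO. The 33 and 16 cells of this class bear this ratio, and without the 1 cell of each library with the most Nrp2 UMIs it was -0.88. Thinned to equal depth, 87.9% of control and 75% of Dnmt1iECKO lymphatic-like cells had an Nrp2 UMI, with intervals of 71.8 to 96.6% and 47.6 to 92.7%.

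In blood vessel classes Nrp2 was higher in the Dnmt1iECKO library or did not differ beyond counting error. Ifit1-led cells had 15.2 CPM in control and 39.5 CPM in Dnmt1iECKO, a log2 ratio of 1.38 (1.04 to 1.71), where 2.15% of genes were past the fold upward. Thinned to equal depth, 18 of 884 control cells (2.04%, 1.21 to 3.20%) and 22 of 315 Dnmt1iECKO cells (6.98%, 4.43 to 10.4%) of this class had an Nrp2 UMI. In interferon gamma-activated-like cells it went from 83.8 CPM in control to 129 CPM, a ratio of 0.62 (0.42 to 0.82), with 3.46% of genes past the fold upward. Proliferating-like cells had 67.5 and 101 CPM, a ratio of 0.57 (0.23 to 0.92), with 4.96%.

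The vein-like class had the most Nrp2 UMIs of the blood vessel classes, and there it stood at 272 CPM in control and 324 CPM in Dnmt1iECKO, a ratio of 0.26 (0.11 to 0.41). With vein-like cells taken by their marker UMIs it was 0.08 (-0.08 to 0.24). Fabp4-led cells had 320 and 441 CPM. The capillary classes held few Nrp2 UMIs, at 4.20 and 10.2 CPM in aerocyte-like cells (55 and 42 UMIs) and 5.47 and 11.7 CPM in general capillary-like cells (34 and 25 UMIs). Both are under the minimum for a call with classes taken by clusters. These levels rest on how the classes are drawn, since by marker UMIs they were 8.38 and 17.7 CPM in aerocyte-like cells (116 and 75 UMIs) and 26.9 and 55.7 CPM in general capillary-like cells (396 and 320 UMIs). Those counts are over the minimum, and in each class the Poisson intervals of the 2 libraries did not overlap. The intervals were 6.92 to 10.1 and 13.9 to 22.2 CPM in aerocyte-like cells. In general capillary-like cells they were 24.3 to 29.7 and 49.7 to 62.1 CPM. In T cell-like cells, taken as the background, 0 of 193 thinned control cells, which allows a share of up to 1.55%, and 0.838% of 597 Dnmt1iECKO cells had an Nrp2 UMI, at median depths of 8717 and 8711 UMIs. In aerocyte-like cells, with median depths of 11598.5 and 11702.5 UMIs, 0.301% and 0.328% did. In CPM the T cell-like cells had 0 and 2.85, against the 4.20 and 10.2 above, so the share and the level do not give the same order in Dnmt1iECKO and no order is read from them.

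Vegfa, the ligand of VEGFR1 and VEGFR2, was itself found in endothelial cells, and most in classes other than the aerocyte-like. Artery-like cells had 550 CPM in control and 471 CPM in Dnmt1iECKO, Hmcn1-led cells 543 and 475 CPM, Ifit1-led cells 515 and 485 CPM, and general capillary-like cells 494 and 518 CPM. These 4 classes overlapped in order in both libraries. Aerocyte-like cells, highest in Kdr, had 88.7 and 89.9 CPM, and lymphatic-like cells 15.8 and 4.13 CPM.

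No Vegfa ratio was past the fold among 9 classes. The lowest were -0.48 (-0.71 to -0.26) in proliferating-like cells, at 246 and 176 CPM, and -0.47 (-0.59 to -0.35) in interferon gamma-activated-like cells, at 352 and 254 CPM. Vegfa in vein-like cells stood at 165 and 127 CPM, with a ratio of -0.38 (-0.60 to -0.16) that was -0.16 (-0.37 to 0.06) with the libraries merged without integration. The highest was 0.43 (0.07 to 0.79) in AY036118-led cells, at 210 and 284 CPM. In aerocyte-like and general capillary-like cells the ratios were 0.02 (-0.15 to 0.19) and 0.07 (-0.03 to 0.17).

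Vegfc, which drives lymphatic growth through VEGFR3, was a vein gene among endothelial cells. Vein-like cells had 500 CPM in control and 516 CPM in Dnmt1iECKO, a log2 ratio of 0.05 (-0.07 to 0.16), and held 29.8% and 45.8% of endothelial Vegfc UMIs. Hmcn1-led cells followed at 220 and 306 CPM and general capillary-like cells at 161 and 195 CPM, a ratio of 0.27 (0.10 to 0.44) that was -0.04 with the class taken by its marker UMIs. Lymphatic-like cells, which carry the receptor, had 0 UMIs in control, which allows up to 5.94 CPM, and 2 UMIs in Dnmt1iECKO.

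Proliferating-like cells had 69.7 CPM of Vegfc in control and 136 CPM in Dnmt1iECKO, a ratio of 0.96 (0.65 to 1.28) in a class where 4.96% of genes were past the fold upward. Aerocyte-like cells had 18.6 and 29.8 CPM, a ratio of 0.68 (0.36 to 1.00), with 1.99% of genes past the fold. That ratio rests on few cells: 1 Dnmt1iECKO cell held 39 of the 123 UMIs, and without the top cell of each library it was 0.24 (-0.14 to 0.60). Within the class, the cluster led by Lmntd1 and Tbx3os1 had 62.8 CPM in 84 control cells and 184 CPM in 19 Dnmt1iECKO cells, and without the top cell of each library 52.3 and 101 CPM. In Ifit1-led cells Vegfc stood at 90.3 and 81.2 CPM, a ratio of -0.15 (-0.35 to 0.03).

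Vegfb, a ligand of VEGFR1, was low. In the control library it ran from 18.7 CPM (16.4 to 21.1) in aerocyte-like to 65.3 CPM (44.9 to 91.7) in lymphatic-like cells. In Dnmt1iECKO it ran from 4.44 CPM in Hmcn1-led to 47.4 CPM in proliferating-like cells, and in both libraries each class overlapped its neighbor in order. It was past the fold in Ifit1-led cells alone among 6 classes, at 27.7 and 18.5 CPM, a ratio of -0.58 (-0.98 to -0.19), where 4.39% of genes were past the fold downward. After thinning, 4.41% of control and 4.76% of Dnmt1iECKO cells of that class had a Vegfb UMI.

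Vegfd, the other ligand of VEGFR3, was low in endothelium, with 333 control and 138 Dnmt1iECKO UMIs, 7.84 and 7.46 CPM. It was highest in vein-like cells, at 18.1 and 18.5 CPM. Pgf had 96 and 38 endothelial UMIs, of which 54 and 11 lay in lymphatic-like cells, at 107 and 45.5 CPM.

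Outside the endothelium the ligands had different sources. Vegfa was highest in alveolar type 1-like cells, the flat cells that face the capillaries, at 2833 CPM in 58 control cells and 2555 CPM in 34 Dnmt1iECKO cells, a log2 ratio of -0.15 (-0.24 to -0.06), and 98.2% and 96.9% of them had a Vegfa UMI after thinning. Alveolar type 2-like cells had 132 and 171 CPM. Macrophage-like cells had 185 and 243 CPM, a ratio of 0.39 (0.31 to 0.48), and neutrophil-like cells 255 and 219 CPM. T cell-like cells had 10.4 and 6.87 CPM, below each of these classes. Hmga2-led cells had 91.9 and 109 CPM.

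Of the VEGFR3 ligands, Vegfd was mostly stromal and Vegfc was not. Stromal cells held 60.7% of Vegfd UMIs in control and 73.4% in Dnmt1iECKO, but 10.1% and 14.3% of Vegfc UMIs. Their share of all UMIs was 10.1% and 10.7%. Vegfd stood at 145 and 168 CPM in alveolar fibroblast-like cells and at 182 and 123 CPM in fibroblast-like cells, while immune cells had 0.462 and 0.351 CPM. Vegfc stood at 103 and 60.6 CPM in mesothelial-like cells (50 and 75 cells) and at 44.4 and 41.8 CPM in alveolar fibroblast-like cells. In mesothelial-like cells Vegfa went the other way, at 105 and 206 CPM, a ratio of 0.97 (0.78 to 1.16). Pgf was highest outside the endothelium in pericyte or smooth muscle-like cells, at 87.8 and 72.1 CPM. Vegfb stood at 108 and 119 CPM in Hmga2-led cells, above every named class.

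**Figure D4:**
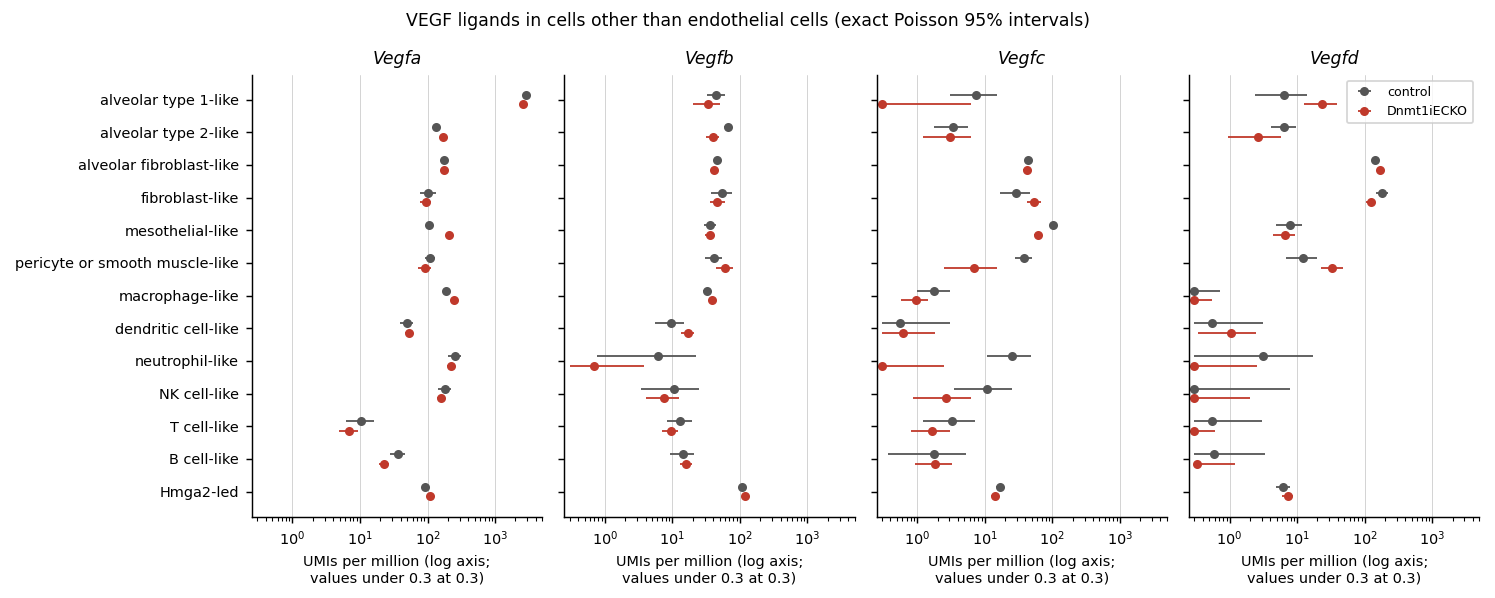
CPM of the ligands in the cell classes outside the endothelium of the control and Dnmt1iECKO library, with exact Poisson 95% intervals. Vegfa is highest in alveolar type 1-like cells, at 2833 and 2555, and Vegfd in the fibroblast classes.

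Most UMIs of Kdr, Flt1, Flt4 and Nrp1, but not of Nrp2, lay in endothelial clusters. Kdr had 80.9% of its UMIs in endothelial clusters and 14.9% in mixed cells of the control library, and 72.9% and 19.5% in Dnmt1iECKO, where all UMIs were split as 42.9% and 12.3% in control and 17.1% and 5.45% in Dnmt1iECKO. Flt1 had 74.5% and 66.5% in endothelial clusters, Flt4 79.3% and 70.2%, Nrp1 74.3% and 56.7%, and Nrp2 only 21.6% and 13.5%. For Nrp2 immune cells held 31.2% and 42.7%, where their share of all UMIs was 18.9% and 49.5%. Hmga2-led cells held 31.2% and 32.2% of Nrp2 UMIs, where their share of all UMIs was 10.0% and 13.8%. Of the ligands, Vegfc was mostly endothelial at 73.9% and 70.9%, Vegfa was split, with 52.3% and 27.5% in endothelial clusters, and Vegfd was stromal at 60.7% and 73.4%. These shares follow the cells that passed the sort and filters, of which immune cells differed most between libraries, and so are not those of the tumor.

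**Figure D5:**
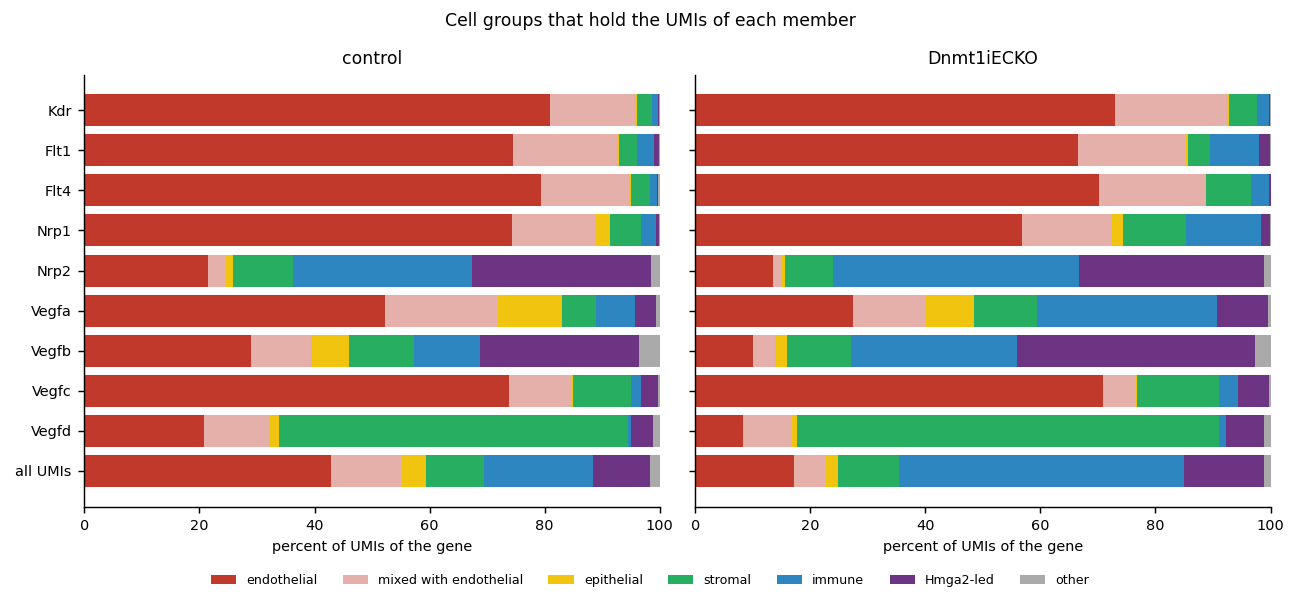
Share of each gene's UMIs (percent) by lineage in the control and Dnmt1iECKO library, over cells left after the quality filters and doublet removal. Kdr, Flt1, Flt4, Nrp1 and Vegfc lie mostly in endothelial cells, Vegfd in stromal cells, and Nrp2 mostly in immune, Hmga2-led and endothelial cells.

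Outside the endothelium, Flt1 and Nrp2 were found in immune clusters and Nrp1 in several lineages. The Kcnip4-led immune cluster, which also led in Chil3 and Ear2, had 270 CPM of Flt1 in control and 300 CPM in Dnmt1iECKO, and 42.1% and 40.6% of its thinned cells had a UMI. In T cell-like cells, which should lack Flt1, 1.55% and 0.503% did, at median depths of 8717 and 8711 UMIs against 28867 and 27006. Kdr in the same cluster was at 19.5 and 1.08 CPM. Nrp2 stood at 319 and 212 CPM in the Kcnip4-led cluster, at 311 and 223 CPM in macrophage-like cells and at 335 and 288 CPM in Hmga2-led cells, against 0 and 2.85 CPM in T cell-like cells.

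Nrp1 was found in alveolar type 2-like cells at 465 and 275 CPM, in alveolar fibroblast-like cells at 499 and 510 CPM, and in T cell-like cells at 178 and 211 CPM, where 24.9% and 29.0% of thinned cells had a UMI. NK cell-like cells had 29.9 and 27.5 CPM. Kdr and Flt1 in some other classes came from single cells: of 138 Flt1 UMIs in control neutrophil-like cells 126 lay in 1 cell, as did 32 of 37 Kdr UMIs. Pericyte or smooth muscle-like cells had 261 and 21.8 CPM of Kdr and 533 and 103 CPM of Flt1, with up to 55 and 89 UMIs in a single control cell.

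Genes that act with the VEGF receptors were taken as lists, over all endothelial cells together. Of all 11948 genes, 9.48% were past the fold in either direction and the median was -0.02. The share was 6.67% for VEGFR signal transduction, 10% for VEGFR2 trafficking and phosphatases and 18.2% for neuropilin partners. It was 15% for VEGF-induced genes, 0% for VEGF-C processing, 26.7% for hypoxia and 7.69% for dissociation genes. Each list was short, so these shares rest on few genes. List ratios were not weighted by class composition, whose part in them was not tested. Of 30 measured genes of VEGFR signal transduction, 2 were higher, Nos3, the endothelial nitric oxide synthase, at 41.1 and 61.9 CPM (log2 ratio 0.59, 0.48 to 0.70), and Nfatc2, a calcineurin-controlled transcription factor, at 4.43 and 6.98 CPM (0.66, 0.32 to 0.99). None was lower, and the list's median was -0.04. Nfatc1 was next at 0.19, and the lowest were Hras (-0.44), Prkca (-0.39) and Hspb1 (-0.37), a small heat shock protein.

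Of 20 genes of VEGFR2 trafficking and its phosphatases, Itgb3 and Itgav, the chains of the integrin that pairs with VEGFR2, were past the fold, at 7.20 and 15.5 CPM (1.10, 0.86 to 1.34) and 48.3 and 70.3 CPM (0.54, 0.44 to 0.64). The phosphatase gene Ptprj had 0.34, and the lowest were Rab4a (-0.35), Spry4 (-0.14) and Efnb2 (-0.13). The list's median was 0.00. Of 11 neuropilin partners, the semaphorin Sema3e was higher at 3.51 and 5.25 CPM (0.58, 0.20 to 0.96), and Sema3b was lower at 5.42 and 0.703 CPM (-2.95, -3.88 to -2.14), on 230 and 13 UMIs. The semaphorin receptor genes Plxnd1 and Plxna1 had 0.31 and -0.38, Sema3d had 0.08, Sema3c -0.22, and the median was -0.02.

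Of 20 genes known to be induced by VEGF, 13 had a ratio above 0 and the median was 0.23. Of all 11948 genes, 5550 had a ratio above 0, with a median of -0.02. Nid2, a basement membrane gene, was past the fold upward (0.78, 0.35 to 1.21), and Angpt2 (0.48) and Rcan1 (0.43) were not. Dusp4, a MAP kinase phosphatase (-0.81, -1.15 to -0.48), and Hlx, a transcription factor (-0.53, -0.67 to -0.40), were past it downward, and Hhex had -0.26. Several genes of this list, among them the early response genes Egr1 and Nr4a1, also answer to tissue dissociation. The dissociation list of 13 genes had a median of 0.05, with Zfp36 (0.37), Fosb (0.32) and Atf3 (0.28) highest and Hspa1a (-0.60, past the fold), Hspa1b (-0.49) and Dnajb1 (-0.19) lowest, and its part in the VEGF-induced list was not tested.

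Of the enzymes that process VEGF-C, only 5 of 9 had enough UMIs and none was past the fold. Pcsk5 (0.21), Pcsk7 (0.13) and Furin (0.10) were the highest and Plau (-0.42) and Ctsd (-0.16) the lowest, with a median of 0.10. Of 15 genes of the hypoxia response, which also induces Vegfa, Ndrg1 was higher at 50.6 and 80.6 CPM (0.67, 0.57 to 0.77). Adm, the adrenomedullin gene (-0.80, -1.29 to -0.33), P4ha1, a collagen prolyl hydroxylase gene (-0.53, -0.63 to -0.44), and Ankrd37 (-0.51, -0.67 to -0.36) were lower. Slc2a1 had 0.41 and Hif1a 0.35, and the list's median was 0.05.

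Over the 19 named cell classes, taken as the mean of both libraries, the genes with the profile most like a member were found by the Pearson correlation of log2(CPM + 10) among 11932 genes. These are descriptions over classes that share libraries and depth. Endothelial cells were required to hold a UMI of Cdh5 or Pecam1, so the likeness of Kdr to Cdh5 is in part built in. Kdr was most like Sema3f (0.97), Ecscr (0.96) and Cdh5 (0.95), Flt1 like Tspan7 (0.97), Clec14a (0.96) and Samd12 (0.95), and Flt4 like Men1, Stab1 and Ipo11 (0.92, 0.92 and 0.91). Nrp1 was most like Ly6a (0.86), Fgfr3 (0.86) and Ly6c1 (0.85), and Nrp2 like Tusc1 (0.82), Rab11fip5 (0.79) and Fkbp1b (0.78). Vegfc was most like Samd5 (0.92), Jam2 (0.92) and Il17rd (0.90), which like it were highest in vein-like cells except Il17rd, highest in general capillary-like cells. Vegfd was most like Meox2 (0.96), Ms4a4d (0.95) and Svep1 (0.95), Vegfa like Ndst1 (0.79), Arhgef26 (0.75) and Agrn (0.73), all highest in alveolar type 1-like cells, and Vegfb like Wwox (0.89), Fkbp2 (0.88) and Chchd6 (0.88).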

How the data were processed

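The deposited values were UMI counts per gene and cell, for which the authors ran Cell Ranger 9.0.1 against mm10 and kept the called cells. The build and version are those of the submitters' processing notes and the study's methods.

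Cells with at least 500 genes and at most 10% mitochondrial UMIs were kept, and Scrublet (scanpy 1.11.5) scores removed the highest-scoring cells as doublets, at 0.4% for each 1000 cells, 257 control and 263 Dnmt1iECKO cells. Cells with at least 200 genes were merged and clustered in Seurat 5.3.0 (R 4.3.3) on 2000 variable genes, less the members and Dnmt1, with 30 components and a resolution of 1. Endothelial cells were then integrated between libraries and clustered at a resolution of 0.5. A cluster was named from at least 3 raised markers, among them at least 1 of its 10 leading genes. The naming thresholds and the mixed class were set after the clusters were seen. UMIs were summed by class in Python 3.11.15 with scipy 1.17.1 for exact intervals, and checked on simulated counts. Shares of cells were taken after thinning to 2000 UMIs per cell, with exact Clopper-Pearson 95% intervals, and cells below that depth left out. With 1 library per condition no test between conditions was made.

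The members and gene lists were chosen with earlier results of these data known. From each list the 3 highest and 3 lowest genes were named. Every deposited column was used. Promoters were read from RefSeq on GRCm38.p6, and 32158 of the 32285 gene identifiers were in the annotation. Alternatives covered the cell filters, doublets, class definitions, scaling and weighting. Those without the AY036118-led class and without the cell with the most UMIs were added after the data were seen.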

Additional observations from a re-analysis of the deposited data

Results flagged for a closer look

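Nrp2 went in different directions by endothelial class. Its log2 ratio, Dnmt1iECKO over control, was 1.38 in Ifit1-led, 0.62 in interferon gamma-activated-like and 0.57 in proliferating-like cells, and -0.8 in lymphatic-like cells. Each interval lies on 1 side of 0, and the lymphatic-like value comes from 33 control and 16 Dnmt1iECKO cells. The difference between the classes was not tested, since each condition was 1 library.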

How the results depend on the processing

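No paired analysis was possible because each condition was 1 library, and for the same reason no replicate could be left out. Of 14 alternatives for each ratio over all endothelial cells, the 9 members ran as follows. With the class composition of the control library the log2 ratio was -0.041 for Kdr, -0.16 for Flt1, -0.030 for Nrp1, 0.30 for Nrp2, -0.10 for Vegfa and 0.23 for Vegfc, so that Nrp2 and Vegfc were under the fold. With clusters of other cell types kept it was -0.17 for Flt1, -0.23 for Nrp1, 0.69 for Nrp2, 0.42 for Vegfc and 0.40 for Vegfd, so that Vegfc was under the fold. With a mean over single cells it was -0.20 for Nrp1, -0.023 for Vegfa and -0.41 for Vegfd. With doublets at 0.8% per 1000 cells it was -0.26 for Kdr and -0.23 for Nrp1. Flt4 stayed between 0.07 and 0.18 and Vegfb between -0.28 and -0.17. Median-of-ratios size factors put 2 genes of the dissociation list past the fold in place of 1. A minimum of 20 UMIs gave a VEGF-C processing median of -0.01. Without the cell with the most UMIs in each library Vegfc was 0.24 in aerocyte-like cells, and Flt4 in proliferating-like cells was -0.59. In artery-like cells Vegfc was then -0.40 (-1.14 to 0.32), on 41 control and 29 Dnmt1iECKO UMIs. Artery-like cells taken by marker UMIs gave -1.32 for Vegfc, on 17 and 3 UMIs. Both artery-like values are under the minimum of UMIs for a call. The causes were not tested. Depth limits Nrp2 in the capillary clusters, Vegfd and Pgf, which held few UMIs.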
